A study of Mus musculus with 15 samples.

Results

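The cytosolic ribosomal protein genes were followed through 15 RNA-Seq libraries of the mouse mammary epithelial line NMuMG and its derivatives. Members were the genes whose symbol has the form of a small-subunit (Rps), large-subunit (Rpl) or stalk (Rplp) protein and whose mean was at least 5 CPM (reads of the gene after each library is scaled to a common total) in at least 1 of the 2 deposited tables. They numbered 77 of 15701 genes. All 77 were members in dataset 1 (of 13893 genes), and 69 were members in dataset 2 (of 15023). Of the 8 others, 7 were listed in dataset 2 below 5 CPM (Rpl24, Rpl36, Rps21, Rps27, Rps27l, Rps28 and Rps29), and Rpl38 was not analysed there. Nearest to that level in dataset 2 were Rplp2 (4.76 to 5.77 CPM) and Rpl36a (4.58 to 5.86) inside it and Rps28 (3.55 to 4.37) outside it. The members comprised 31 small-subunit and 46 large-subunit genes, on 18 autosomes and the X chromosome.

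Dataset 1 held 11 libraries of lines that all express an shRNA against PCBP1 (shPCBP1). The 4 shPCBP1 lines were the unaltered line and 3 control clones, which had received Cas9 without a gene-specific guide. The 3 FAM3C KO clones and the 3 LIFR KO clones were CRISPR-Cas9 clones grown from the shPCBP1 line, each a single clone with 1 RNA sample. The FAM3C/LIFR double KO was 1 sample on the shPCBP1 background. Its label gives no clone number, and the text of the study does not describe how it was made. Dataset 2 was a pre-existing table of 2 NMuMG samples and 2 NMuMG shPCBP1 samples. The study calls the NMuMG samples shSCR, and their labels name no treatment. The labels do not say that the replicates of dataset 2 came from separate cultures, so its p-values measure the spread between these samples, which may be technical.

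Each cytosolic ribosome is built from a small subunit, which reads the mRNA, and a large subunit, which joins amino acids. Cells make the ribosomal proteins in matched amounts. Their mRNAs are among the most abundant of a growing cell, and most begin with a C followed by a run of pyrimidines, the terminal oligopyrimidine (TOP) tract, through which mTOR signalling and LARP1 control their translation. Some members have roles outside the ribosome. RPL5 and RPL11 bind MDM2 and so link ribosome assembly to p53, RPS6 is the classical substrate of S6 kinase, and RPS27A is made as a fusion to ubiquitin. PCBP1 is an RNA-binding protein with an affinity for C-rich stretches, FAM3C is a secreted cytokine-like protein, and LIFR is the receptor of leukemia inhibitory factor.

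The start sites of members that the results turn on are shown first because their pyrimidine tract is the feature the family is known for. RefSeq promoters (GRCm38.p6) were at hand for 57 of the 77 members. Each window holds 15 bases before the annotated start and 15 from it onward, and capitals mark the longest run of C and T where it has at least 5 bases. The windows lie at chr14:18270972-18271001 (minus strand) for Rpl15, chr7:4792950-4792979 (plus) for Rpl28, chr11:101442230-101442259 (plus) for Rpl27, chr14:24490663-24490692 (plus) for Rps24, chr4:86857353-86857382 (minus) for Rps6, chr17:27635230-27635259 (minus) for Rps10, chr4:152325711-152325740 (plus) for Rpl22, chr7:99483695-99483724 (minus) for Rps3 and chrX:37085208-37085237 (minus) for Rpl39.
Rpl15: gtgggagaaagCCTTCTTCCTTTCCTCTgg
Rpl28: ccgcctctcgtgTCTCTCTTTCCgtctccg
Rpl27: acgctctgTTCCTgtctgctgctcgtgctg
Rps24: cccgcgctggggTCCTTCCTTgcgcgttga
Rps6: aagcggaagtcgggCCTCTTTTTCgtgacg
Rps10: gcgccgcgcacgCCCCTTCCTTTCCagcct
Rpl22: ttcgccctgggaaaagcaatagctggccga
Rps3: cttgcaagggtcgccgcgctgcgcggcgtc
Rpl39: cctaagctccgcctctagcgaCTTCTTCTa
The run was longest in Rpl15 (17 bases) and stood at 13 in Rps10, 11 in Rpl28, 10 in Rps6 and 9 in Rps24, while the windows of Rpl22 and Rps3 held no run of 5. The window of Rps4x, not printed, held none either (longest run 4). A run of at least 7 was found in 56.1% of the members' windows (32 of 57) and in 21.3% of the windows of all 27025 genes with a promoter. In the 300 bases of the promoters, searched on both strands, CCGGAAG (the core that ETS factors bind) was present for 42.1% of the members and 9.93% of all genes, AAGATGGC (the YY1 core) for 8.77% and 3.19%, and TATAAA for 10.5% and 15.7%. Annotated starts can miss the start in use by some bases, so a window without a run says only that these letters are not in it.

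The lowest values of dataset 1 imply totals of 16031859 to 46901675 reads per library, and the depth of dataset 2 is unknown. Pcbp1 stood in dataset 2 at 287 and 312 CPM in NMuMG and, after knockdown, at 14.1 and 14.2. Fam3c was 26.4 to 42.9 CPM in the FAM3C KO clones against 47.0 to 59.4 in the shPCBP1 lines. Lifr was 34.9, 29.3 and 14.6 CPM in LIFR KO clones 1 to 3 against 25.8 to 40.2, so clones 1 and 2 lay within the control range. The double KO had 42.4 CPM of Fam3c and 4.36 of Lifr. The guide pairs were chosen to excise part of a coding sequence, so reads from the rest of the gene can remain. Whether this accounts for the values above was not tested. Of the 6 epithelial markers, Epcam was not analysed in either dataset and Cldn4 not in dataset 1, while Cdh1, Krt8, Krt18 and Krt19 lay between 149 and 1302 CPM in every library. The summed epithelial markers were 2466 to 3166 CPM in shPCBP1, 2001 to 3023 in FAM3C KO and 1212 to 2092 in LIFR KO. The 5 mesenchymal markers listed of 6 summed to 507 to 529 CPM in NMuMG and 1265 to 1300 in the shPCBP1 samples of dataset 2. In dataset 1 they summed to 1678 to 1910 CPM in shPCBP1, to 1920 to 2090 in FAM3C KO, where every clone was above every shPCBP1 line, and to 1153 to 1803 in LIFR KO. The leukocyte, endothelial and adipocyte markers listed stayed at or below 10.8, 2.00 and 0.751 CPM in sum. Their part in the results was not tested.

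Together the members made up a modest share of these libraries, which were prepared by rRNA depletion. Their summed level was 13605 to 14766 CPM in the 4 shPCBP1 lines of dataset 1, 12543 to 13423 in the FAM3C KO clones, and 14849, 10464 and 9321 in LIFR KO clones 1, 2 and 3. The double KO was lowest, at 8822 CPM. In dataset 2 the 69 members summed to 6295 and 6336 CPM in NMuMG and to 6466 and 6356 in shPCBP1. The summed level therefore differed little with PCBP1 knockdown, and the LIFR KO clones fell on either side of the control lines. Levels cannot be set between the datasets or read as transcript abundance per gene, because CPM is not scaled to length and 72 of the 77 members have at least 1 pseudogene copy that matches 80% or more of the coding sequence at 95% identity or better (median 5 copies, up to 56 for Rpl21). Reads from such copies cannot be told apart with certainty, so the level of each of these members is uncertain to that extent. In dataset 2, for instance, Rps12 was listed at 28.1 and 28.5 CPM in NMuMG while its pseudogene Rps12-ps3 was listed at 547 and 571.

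Knockdown of PCBP1 shifted many members by small amounts, in both directions. Of the 69 members of dataset 2, 51 passed the threshold (limma on log2(CPM + 0.1), Benjamini-Hochberg adjusted p under 0.07), 30 higher and 21 lower in shPCBP1. Among all 11384 genes tested the share that passed was 80.1%, with 42.1% higher and 38% lower, and the members' share was 73.9%. The median log2 fold change was 0.02 for the members and 0.02 for all genes, and the interquartile range was -0.11 to 0.21 for the members and -0.34 to 0.38 for all genes. A fold change of 1.5 in addition was met by 5 members, against 31.1% of all genes. The small-subunit genes had a median of 0.00 (18 of 26 passed, 10 higher and 8 lower) and the large-subunit genes 0.05 (33 of 43 passed, 20 higher and 13 lower).

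**Figure D1:**
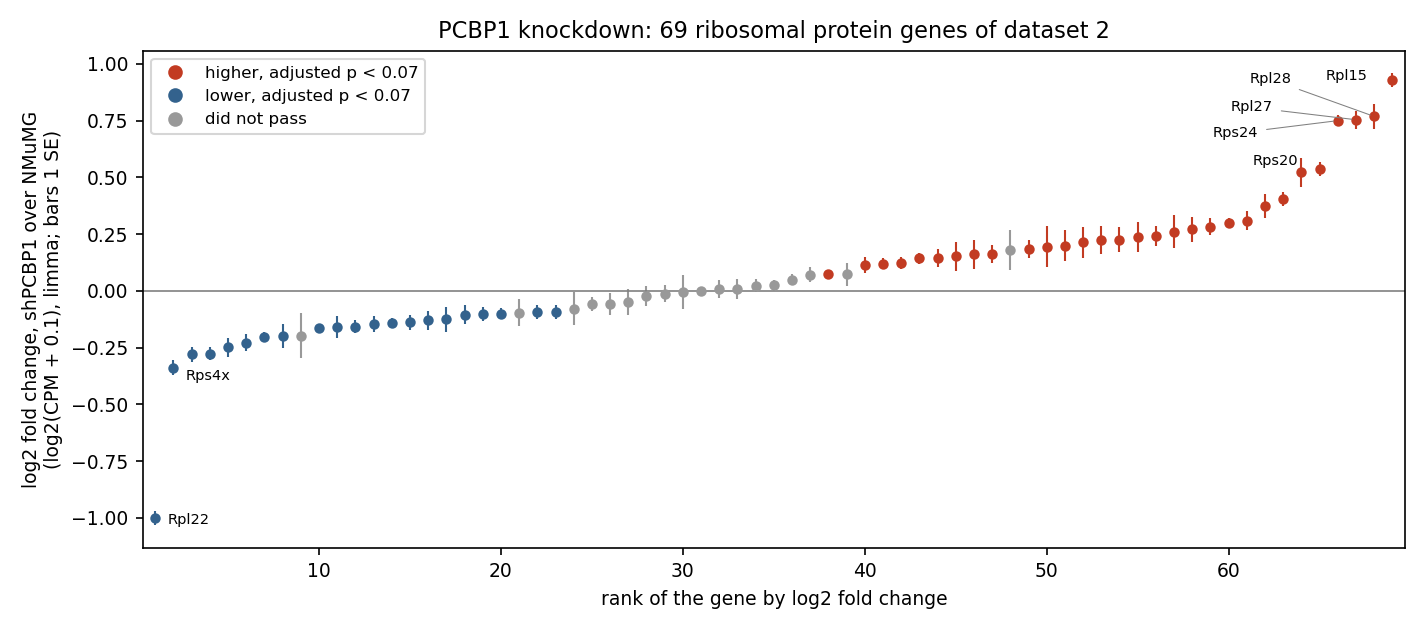
Log2 fold change (y axis) of each of the 69 ribosomal protein genes of dataset 2 (x axis, in rank order), shPCBP1 over NMuMG, with bars of 1 standard error and 2 samples per group. Rpl22 stands alone at the low end at -1.001, and Rpl15, Rpl28, Rpl27 and Rps24 at the high end lie between 0.75 and 0.93.

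Rpl22, a large-subunit protein that mice can live without, fell most. It was 60.5 and 61.2 CPM in NMuMG and 30.3 and 30.4 CPM in shPCBP1 (log2 fold change -1.001 ± 0.03 SE, adjusted p = 2.29e-10). The samples within each group differed by less than 1 CPM, and the groups lay far apart. Small-subunit genes that fell changed less. Rps4x, the X-linked copy of S4, was 149 and 146 CPM in NMuMG and 121 and 113 in shPCBP1 (-0.34 ± 0.03, adjusted p = 2.04e-06). Rps3, which lines the mRNA entry channel, fell by 0.28 on the log2 scale and Rps10 by 0.25.

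The largest rises were in 3 large-subunit and 2 small-subunit genes. Rpl15 was 57.4 and 55.3 CPM in NMuMG and 106 and 109 CPM in shPCBP1 (log2 fold change 0.93 ± 0.03 SE, adjusted p = 2.67e-10). Rpl28 was 10.7 and 11.4 CPM in NMuMG and 19.2 and 18.7 in shPCBP1 (0.77 ± 0.06, adjusted p = 2.39e-07). Rpl27 was 22.3 and 23.1 CPM against 37.7 and 38.9 (0.75 ± 0.04, adjusted p = 1.26e-08). None of these groups overlapped, and the differences were many times the spread between samples. Rps24, which is mutated in some cases of Diamond-Blackfan anaemia, was 78.5 and 77.7 CPM in NMuMG and 133 and 130 in shPCBP1 (0.75 ± 0.03, adjusted p = 4.25e-10). Rps20 was 65.9 and 64.8 CPM in NMuMG and 97.4 and 92.5 in shPCBP1 (0.54 ± 0.03, adjusted p = 2.79e-08). The annotated pseudogene Rpl27-ps3, which shares sequence with Rpl27, rose as well, from 247 and 237 CPM to 306 and 306 (0.34 ± 0.02, adjusted p = 1.97e-07).

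After PCBP1 knockdown, members moved with the genes around them. For each member, the median log2 difference between the shPCBP1 and NMuMG means was taken over all other tested genes within 5 Mb that are not members (positions of GENCODE M21, GRCm38). Across the 69 members, the member's own difference and this median had a Spearman correlation of 0.637 (genes on a shared stretch share neighbours, so the points are not independent). It was 0.224 for either NMuMG sample against the mean of both. Rpl15 (chr14:18267823-18271391) rose by 0.93 and its 40 neighbours had a median of 0.90. Rps24 (chr14:24487125-24496959) rose by 0.75 and its 44 neighbours had a median of 0.91, and Rps20 (chr4:3831334-3835665) by 0.54 with 0.85 for its 13. The medians of these neighbours were close to the member's own value or above it. Rpl28 (chr7:4792874-4795066) rose by 0.77 where its 48 neighbours had a median of -0.15, and Rpl27 (chr11:101442298-101445529) by 0.75 where its 156 neighbours had a median of 0.26. The correlation was 0.625 with neighbours within 2 Mb and 0.645 within 10 Mb.

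The members fixed for their known roles showed both directions after PCBP1 knockdown. Of the MDM2-binding pair, Rpl11 rose from 12.1 and 12.2 CPM to 14.7 and 14.7 (0.27 ± 0.05, adjusted p = 7.75e-04), whereas Rpl5 fell from 73.2 and 70.7 CPM to 69.1 and 65.8 (-0.09 ± 0.03, adjusted p = 0.0208). Rps6 rose by 0.12 and Rpsa, which is also known as the laminin receptor precursor, by 0.11. Rps27a rose by 0.24 and Rps19, the gene most often mutated in Diamond-Blackfan anaemia, fell by 0.14. In the stalk, the flexible arm of the large subunit that recruits translation factors, Rplp0 fell by 0.17 (698 and 701 CPM to 628 and 620), Rplp2 rose by 0.20 and Rplp1 had a difference of -0.00 (adjusted p = 0.962). The X-linked members all had negative differences. Rpl39 fell by 0.23, Rpl10 by 0.15 and Rps4x by 0.34, while Rpl36a at -0.20 did not pass (adjusted p = 0.0883), and the neighbours of these 4 had medians of -0.19, -0.21, -0.22 and -0.36. Rpl13a, at 0.05 (adjusted p = 0.091), did not pass either. Among members at 10 CPM or below, Rpl37, Rpl37a, Rplp2 and Rps13 rose, and Rpl17, Rpl36a and Rps7 did not pass. The partner of Rps27l, Rps27, fell by 0.30 (adjusted p = 0.0231) at 2.94 to 3.88 CPM, below the level set for members there, and Rps27l itself, at 0.23 to 0.59 CPM, was left out by the filter on low values.

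With loss of FAM3C on the shPCBP1 background, no member passed the threshold by limma (0 of 77, against 0.309% of 12621 genes tested). At an unadjusted p under 0.05 there were 2 members, and that share of all genes was 10.2%. The LIFR KO clones enter the spread of this fit. Over them the median SD of a member on the log2 scale was 0.37, against 0.07 over FAM3C KO and 0.09 over shPCBP1. The count of 0 therefore does not show that the members stayed level. The differences were small, with 70 of the 77 within 0.25 on the log2 scale of 0. They were mostly negative, however. The log2 difference was below 0 for 62 members (80.5%, against 52.9% of all genes), the median was -0.10 against -0.01 for all genes, and in 23 members every FAM3C KO clone lay below every shPCBP1 line (29.9%, against 12.5% of all genes). In 2 members, Rpl22 and Rpl36, every clone lay above (10.1% of all genes). The large-subunit median was -0.12 and the small-subunit median -0.07. The members' median deviation from the shPCBP1 mean was -0.08, -0.06 and -0.15 in FAM3C KO clones 1 to 3 and -0.04, -0.02, -0.03 and 0.09 in the unaltered line and control clones 1 to 3. An exact permutation test of a single gene with 4 against 3 lines cannot go below 0.0571, so limma alone is given.

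**Figure D2:**
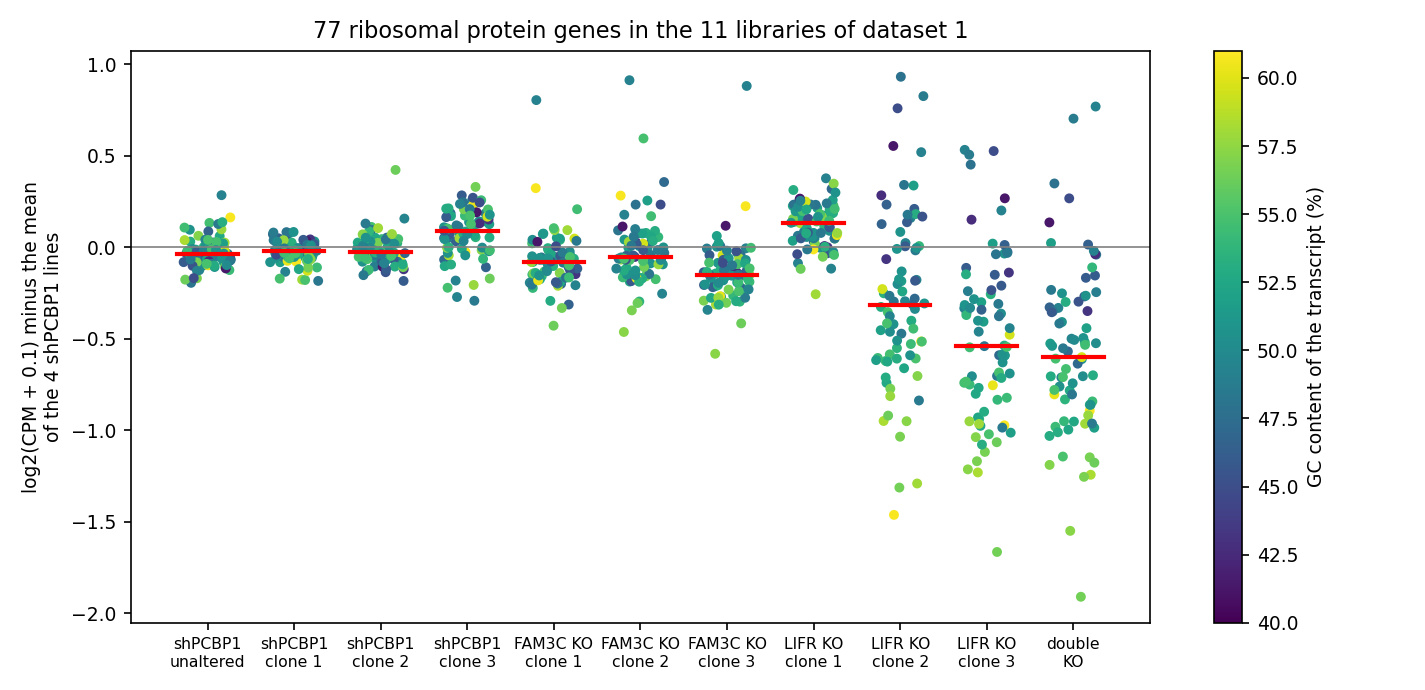
Deviation of each of the 77 ribosomal protein genes (points) from its mean over the 4 shPCBP1 lines, as log2(CPM + 0.1) on the y axis, in the 11 libraries of dataset 1 (x axis), coloured by the GC content of the transcript, with the median of the members as a red line. The medians lie between -0.15 and 0.13 in 8 libraries and at -0.31, -0.54 and -0.60 in LIFR KO clones 2 and 3 and the double KO, where the spread of the points is also wide.

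In FAM3C KO the member with the smallest p was again Rpl22, here on the high side. The 4 shPCBP1 lines stood at 75.5 (unaltered), 61.4, 58.4 and 54.6 CPM, and FAM3C KO clones 1 to 3 at 108, 117 and 114 CPM (log2 difference 0.87 ± 0.17 SE, unadjusted p = 4.32e-04, adjusted p = 0.0968). The groups did not overlap, yet the value missed the threshold. It passed when FAM3C KO and shPCBP1 were fitted alone, after correction for GC content, and when any 1 of the 3 LIFR KO clones was left out of the fit. The next on the high side was Rpl36, at 96.5 to 114 CPM in shPCBP1 and 119 to 128 in FAM3C KO (0.28 ± 0.26, adjusted p = 0.849). The smallest p values on the low side belonged to Rpl7 (270 to 296 CPM against 244 to 248, -0.19 ± 0.08, adjusted p = 0.452) and Rps7 (-0.19, adjusted p = 0.567). With the 2 groups fitted alone, 7 members passed (9.09%, near the 8.29% of all genes in that fit), among them Rpl22 and Rpl36 higher and Rpl13a, Rpl18, Rpl27 and Rpl7a lower.

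Over all 77 members, the correlation of a member's difference with its neighbours' median was 0.237 (Spearman) and 0.740 (Pearson) in FAM3C KO. After PCBP1 knockdown these values were 0.637 and 0.683. The Spearman value was 0.126 to 0.336 in the single FAM3C KO clones and 0.264 to 0.414 in the single shPCBP1 lines. It was 0.558 in LIFR KO and 0.509 in the double KO. The members that follow are single cases. Rpl22 lies near the end of chromosome 4 (chr4:152325742-152334071), and its neighbours were high in the same clones. Over the 118 other tested genes within 5 Mb, the median log2 deviation was 0.77, 0.72 and 0.74 in FAM3C KO clones 1 to 3, where Rpl22 itself stood at 0.80, 0.91 and 0.88. All 57 tested genes in the 5 Mb after the start of Rpl22 were above the shPCBP1 mean, with a median of 0.84. Before it, the 12 genes between 2 and 3 Mb away had a median of 0.87 and the 14 between 3 and 4 Mb a median of -0.04. The high stretch thus began between 2 and 4 Mb before Rpl22. The neighbours of Rpl36 (chr17:56613416-56614243) had a median of 0.34 over 58 genes, beside 0.28 for Rpl36. In FAM3C KO clone 2 alone, Rps14 was 196 CPM against 139 and 122 in the other FAM3C KO clones, and Rpl17 was 49.6 against 33.7 and 34.8. Their neighbours on the same chromosome had medians of 0.39 and 0.26 in that clone and between -0.06 and 0.04 in the others.

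**Figure D3:**
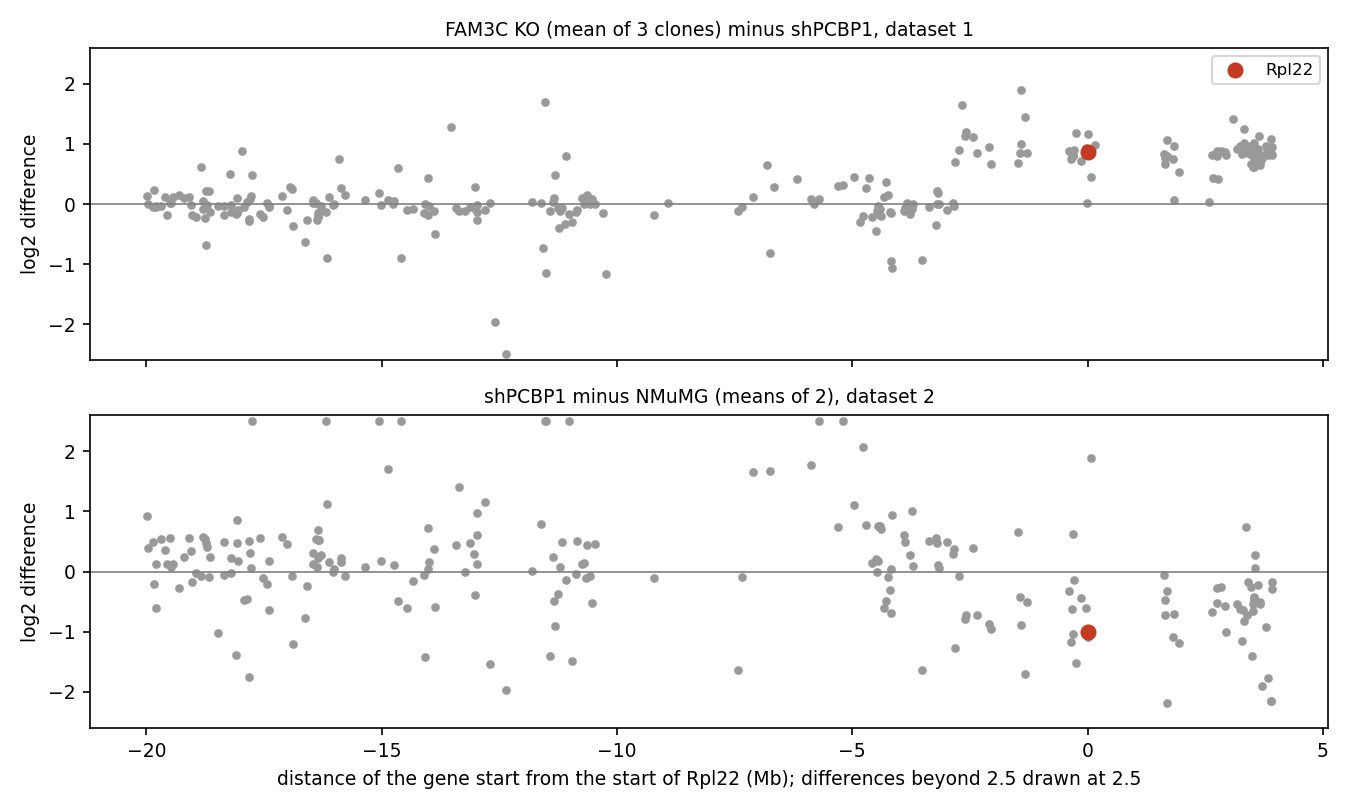
Log2 difference (y axis) of each tested gene on chromosome 4 within 20 Mb of Rpl22 against the distance of its start from the start of Rpl22 (x axis, Mb), for FAM3C KO over shPCBP1 (top) and shPCBP1 over NMuMG (bottom), with Rpl22 in red. From about 3 Mb before Rpl22 to the last gene, the medians of the 1-Mb bins lie between 0.76 and 0.98 in the top panel and below -0.5 in the bottom panel, apart from 1 bin of 2 genes at 0.40.

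The same stretch was low after PCBP1 knockdown. In dataset 2 the 43 tested genes in the 5 Mb after the start of Rpl22 had a median log2 difference of -0.55 (4 of 43 above 0), the 11 genes between 2 and 3 Mb before it a median of -0.72, and the 11 between 3 and 4 Mb before it a median of 0.48. Rpl22 at -1.001 was lower than these medians. The shPCBP1 cells were thus low over this stretch against NMuMG, and the FAM3C KO clones were high over it against the shPCBP1 lines. Over the neighbours within 5 Mb, the double KO and LIFR KO clone 3 had medians of 0.13 and 0.14, beside -0.24 and -0.21 over all genes. LIFR KO clones 1 and 2 had -0.05 and -0.64. The unaltered shPCBP1 line had 0.20, and control clones 1 to 3 had -0.08, -0.07 and -0.01.

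Rpl22l1 encodes a near twin of RPL22 that can take its place in the ribosome, and RPL22 protein is known to hold down Rpl22l1 mRNA. Rpl22l1 is not a member by its name. In dataset 2 it was 15.9 and 17.05 CPM in NMuMG and 24.0 and 24.2 in shPCBP1, a rise of 0.55 ± 0.05 (adjusted p = 1.28e-06) where Rpl22 fell by 1.001. In dataset 1 it was 50.4, 60.3, 56.1 and 80.3 CPM in the unaltered line and control clones 1 to 3, and 43.7, 42.8 and 43.4 in the FAM3C KO clones (-0.49 ± 0.24, adjusted p = 0.527). The FAM3C KO values lay below all control values for Rpl22l1 and above all of them for Rpl22, although neither difference passed. The ratio of the CPM of Rpl22 to that of Rpl22l1 went from 3.80 and 3.59 in NMuMG to 1.26 and 1.26 in the shPCBP1 samples of dataset 2, and from 0.68 to 1.498 in the shPCBP1 lines of dataset 1 to 2.48, 2.73 and 2.63 in FAM3C KO. LIFR KO clone 2 had the highest Rpl22l1 of the 11 libraries of dataset 1, 134 CPM, with Rpl22 at 54.7 (ratio 0.407). Control clone 3 had nearly the same Rpl22, 54.6 CPM, but Rpl22l1 at 80.3. Rpl22 exceeded every shPCBP1 line in LIFR KO clone 3 (89.6 CPM) and the double KO (106). Their Rpl22l1, 67.8 and 60.1 CPM, was nevertheless above that of the unaltered line. LIFR KO clone 1 had 58.3 CPM of Rpl22 and 66.1 of Rpl22l1. Whether Rpl22l1 follows Rpl22 across the libraries was not tested. Between FAM3C KO and LIFR KO the difference in Rpl22l1 passed the threshold (-0.96 ± 0.26, adjusted p = 0.057).

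**Figure D4:**
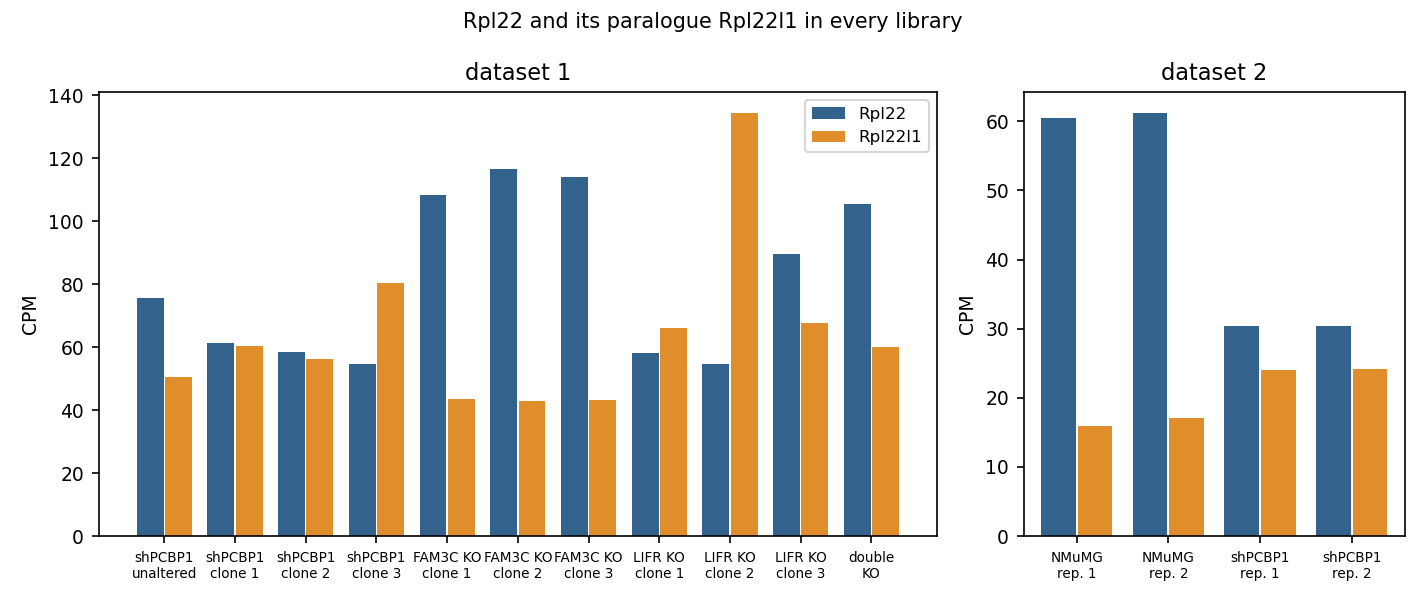
CPM (y axis) of Rpl22 (blue) and Rpl22l1 (orange) in each of the 11 libraries of dataset 1 and the 4 of dataset 2 (x axis), 1 bar per library. Rpl22 exceeds Rpl22l1 by more than 2-fold in the 3 FAM3C KO clones and in the 2 NMuMG samples.

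Loss of LIFR gave clones that differed from each other. Of the 77 members 1 passed the threshold (limma), Rpl8, which was lower. Among all genes tested 6.47% passed, 0.911% higher and 5.55% lower. An unadjusted p under 0.05 was found for 26 members and 35.7% of all genes. In 2 members all clones lay above the shPCBP1 lines (3.95% of all genes) and in 2 below (13.2%). The median log2 difference was -0.24 against -0.16 for all genes, and 57 members (74.0%) were below 0 against 64.5% of all genes. Clone 1 had a median of 0.13 over the members and -0.01 over all genes, with 35 members above the highest shPCBP1 line (21.8% of all genes were) and 2 below the lowest (28%). Clones 2 and 3 had medians of -0.31 and -0.54 over the members and -0.25 and -0.21 over all genes. In clone 2, 52 members lay below the lowest shPCBP1 line (53.5% of all genes) and 10 above the highest (26%). In clone 3, 63 lay below (52%) and 6 above (27.9%). The spread between clones was accordingly large: the median SD of a member on the log2 scale was 0.37 over the LIFR KO clones, 0.09 over the shPCBP1 lines and 0.07 over the FAM3C KO clones. Without clone 1, 57 members passed (74.0%), 6 higher and 51 lower, with a median of -0.41, and the share of all genes rose to 57.4%. Without clones 2 and 3 none passed (2.22% of all genes) and the median was 0.13. LIFR KO is then 1 library, whose spread is assumed to be that of the other groups. The direction of the family's difference therefore rested on which clones were counted.

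Within clones 2 and 3 the members were ordered by the base composition of their transcripts. The Spearman correlation of a member's deviation with its GC content was 0.02 in clone 1, -0.72 in clone 2 and -0.74 in clone 3 (77 members of 1 library each, described without a test). Over all genes tested with a GC value it was 0.07, -0.75 and -0.75. The 26 members of lowest GC content (41.3% to 49.3%) had medians of 0.09, 0.13 and -0.15 in clones 1 to 3. The 26 of highest GC content (53.1% to 60.8%) had medians of 0.14, -0.61 and -0.89. The GC-rich members were thus lowest in clones 2 and 3 and not in clone 1. mRNAs encoded by the mitochondrial genome took 2.72% of the normalised reads in clone 1, 5.09% and 5.21% in clones 2 and 3, and 2.47% to 2.96% in the shPCBP1 lines. The part of base composition and of the mitochondrial share in the differences was not tested beyond the correction for GC content, under which no member passed (0.484% of all genes) and the median was -0.04.

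**Figure D5:**
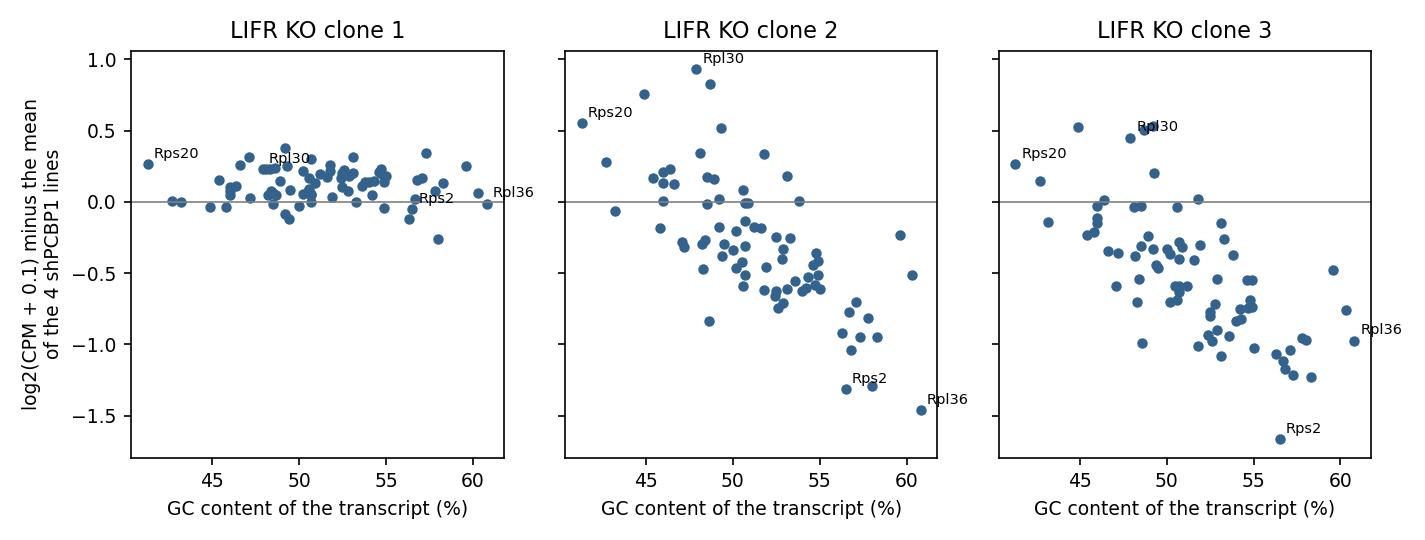
Deviation of each of the 77 ribosomal protein genes from its mean over the 4 shPCBP1 lines (y axis, log2(CPM + 0.1)) against the GC content of its transcript (x axis, percent) in the 3 LIFR KO clones. Clone 1 shows no slope, and in clones 2 and 3 the points fall from Rpl30 and Rps20 at upper left to Rps2 and Rpl36 at lower right.

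Sequences of members picked by their LIFR KO differences illustrate the contrast and do not test it. The first 60 coding bases of members at the upper and lower ends of those differences are given from GENCODE M21 (GRCm38), with G and C in capitals. The order by GC content was not strict. In clone 3, Rpl37 (48.3% GC) stood at -0.70, while 8 of the 26 members of lowest GC content were above 0. They belong to Rpl39 (chrX:37082520-37085402, minus strand), Rpl30 (chr15:34440505-34443640, minus), Rpl8 (chr15:76904078-76906314, plus) and Rps2 (chr17:24718116-24721929, plus).
Rpl39: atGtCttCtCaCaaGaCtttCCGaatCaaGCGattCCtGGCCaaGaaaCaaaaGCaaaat
Rpl30: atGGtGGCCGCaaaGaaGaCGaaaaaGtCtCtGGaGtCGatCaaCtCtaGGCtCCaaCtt
Rpl8: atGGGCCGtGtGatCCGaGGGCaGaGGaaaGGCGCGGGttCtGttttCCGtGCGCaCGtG
Rps2: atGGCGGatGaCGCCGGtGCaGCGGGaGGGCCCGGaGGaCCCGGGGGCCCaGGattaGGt
G or C made up 24, 29, 38 and 44 of the 60 bases, and 48.7%, 47.9%, 58.0% and 56.5% of the whole transcripts. Rps2 fell further than Rpl8 although the GC content of its transcript was lower.

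Rpl8, a core protein of the large subunit near its catalytic centre, was 1030 CPM in the unaltered line, 895, 1088 and 1047 in control clones 1 to 3, and 847, 414 and 518 in LIFR KO clones 1 to 3 (-0.84 ± 0.20 SE, adjusted p = 0.0523). All 3 clones were below the lowest control line. The call was lost when any 1 of the 10 fitted libraries was left out, other than FAM3C KO clone 2 and LIFR KO clone 1. Its 160 neighbours had medians of -0.48, -1.18 and -0.62 in the 3 clones, beside -0.26, -1.29 and -0.97 for Rpl8. Rps2, at 480 to 652 CPM in shPCBP1 and 500, 209 and 163 in the LIFR KO clones, had the largest difference of the members (-1.01 ± 0.31) and did not pass (adjusted p = 0.0811). On the high side none passed. Rps20 was 218 to 270 CPM in shPCBP1 and 284, 347 and 284 in LIFR KO (0.36 ± 0.11, adjusted p = 0.0803), and Rpl30 was 53.7 to 65.0 CPM and 67.2, 109 and 78.2 (0.54 ± 0.17, adjusted p = 0.0815). Both groups of values stayed apart in all clones.

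Compared directly, FAM3C KO and LIFR KO differed in 4 members (limma), 3 higher and 1 lower in FAM3C KO, against 8.28% of all genes tested (6.83% higher and 1.45% lower). Rpl36 was 128, 124 and 119 CPM in FAM3C KO and 101, 36.9 and 51.9 in LIFR KO (1.09 ± 0.28 SE, adjusted p = 0.0531). Rpl8 was 1080, 1033 and 971 CPM against 847, 414 and 518 (0.86 ± 0.22, adjusted p = 0.0512). Rpl22 was 108, 117 and 114 CPM against 58.3, 54.7 and 89.6 (0.78 ± 0.18, adjusted p = 0.0441). For these 3 genes each FAM3C KO clone exceeded each LIFR KO clone. Rpl39, a very small protein at the mouth of the exit tunnel, was 51.4, 55.3 and 47.7 CPM in FAM3C KO and 59.8, 102 and 82.0 in LIFR KO (-0.63 ± 0.17, adjusted p = 0.0587). The members' median was 0.20 beside 0.14 for all genes. Without LIFR KO clone 1, 55 members passed (71.4%, against 52.9% of all genes in that fit). Without clones 2 and 3, with the spread of the 1 remaining LIFR KO library assumed from the other groups, 12 passed (15.6%, against 9.45%), of which Rpl22 was the 1 shared with the 4 above. With any 1 of the other 9 libraries left out, Rpl22 alone passed (unaltered shPCBP1 line, control clone 3 or LIFR KO clone 3 absent) or none did. With replicate numbers as a block (0% of all genes), and after GC correction (0.643%), none passed.

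The members fixed for their roles gave no call in any of the 3 comparisons of dataset 1 apart from Rpl39. In FAM3C KO their differences ran from -0.32 (Rplp1) to 0.01 (Rps27a), and in LIFR KO from -0.61 (Rplp1) to 0.46 (Rpl39). Rplp1 also varied within FAM3C KO, at 573 CPM in clone 1 and 390 and 359 in clones 2 and 3, against 513 to 564 in shPCBP1. Among the MDM2-binding pair in LIFR KO, Rpl5 had a difference of 0.15 (adjusted p = 0.284) and Rpl11 of -0.23 (adjusted p = 0.288). The paralogue Rps27l, a p53-responsive gene, stood at 53.9 to 71.8 CPM in shPCBP1 and 59.0, 103 and 87.3 in LIFR KO (0.41 ± 0.18, adjusted p = 0.13), and its partner Rps27 had a difference of 0.00.

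The single double KO resembled LIFR KO clones 2 and 3 in rank and was not tested. Of its 77 members, 66 were below the lowest shPCBP1 line (53.8% of all genes tested were) and 4 above the highest (26%), and its correlation with GC content was -0.71. The 4 were Rpl22 (106 CPM), Rpl39 (94.1), Rpl30 (72.8) and Rps27l (72.9). Mitochondrial mRNAs took 6.04% there.

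Other genes of the pathway were counted from lists. After PCBP1 knockdown, when 80.1% of all genes passed, the list with the highest median was ribosome biogenesis, the factors that make and process rRNA and assemble the subunits. All 36 listed genes passed, 33 higher and 3 lower (limma), where 42.1% of all genes were higher and 38% lower, with a median log2 difference of 0.57 beside 0.02 for the ribosomal protein genes. Gnl3, the nucleostemin gene, went from 18.02 and 17.3 CPM to 42.2 and 40.6 (1.23 ± 0.04, adjusted p = 4.63e-10), and Tcof1, the Treacher Collins gene, from 21.4 and 21.4 to 45.1 and 46.4. Fbl, Nop10 and Polr1d fell, by 0.26, 0.33 and 0.07. Of 14 other genes with TOP mRNAs, 10 rose and 3 fell (median 0.17). Pabpc1, the poly(A)-binding protein, rose by 0.64 and Tpt1 fell by 0.52. The 76 mitochondrial ribosomal protein genes tested had 37 higher and 18 lower (median 0.10), and the 72.4% that passed was below the share of all genes.

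Among 15 regulators of ribosomal protein mRNA, 7 rose and 4 fell after PCBP1 knockdown (73.3% passed, against 80.1% of all genes). The median of the list was 0.05, and its differences ran from -1.18 to 0.70. Larp1, the TOP-binding repressor, rose by 0.70, Myc by 0.65 and Mtor by 0.50, and Ddit4, an inhibitor of mTOR complex 1, fell by 0.57. Of 11 p53 targets and regulators 5 rose and 3 fell (72.7% passed), with Cdkn1a at 1.13 and Phlda3 at 1.27 and Mdm2 at -0.03 (adjusted p = 0.363). The median of this list was -0.03, and its differences ran from -0.65 to 1.27. Of the 7 ribosomal protein genes outside the name rule 4 rose, such as Rack1 (0.22) and Rpl7l1 (0.53), and 3 fell, such as Fau (-0.50) and Rps3a1 (-0.37), and of 5 listed pseudogenes 3 rose and 2 fell. None of the 8 snoRNA host genes was analysed in either dataset.

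In FAM3C KO no gene of these lists passed the threshold (limma), with 1 of the p53 list, 1 of 6 pseudogenes and 2 of 78 mitochondrial ribosomal protein genes at an unadjusted p under 0.05 and none in the others. Their medians ran from -0.18 (pseudogenes) to 0.00. In LIFR KO, Nap1l1 of the TOP list was higher (0.64 ± 0.16, adjusted p = 0.0528), and Bop1 of the biogenesis list (-0.89 ± 0.19, adjusted p = 0.0414), Mrpl2 (-0.78 ± 0.21, adjusted p = 0.0671) and 3 of the p53 list were lower, namely Gdf15, Phlda3 and Sesn2, by 1.71, 1.15 and 0.67. Between FAM3C KO and LIFR KO, Bop1, Eif4ebp1, Ddit4, Mrpl58 and the same 3 p53 targets were higher in FAM3C KO, and Rpl22l1 lower.

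Genes outside the family followed its mean level closely over the 11 libraries of dataset 1. The highest Pearson correlations with the mean log2 level of the members were 0.995 for Ampd2, 0.993 for Mrpl37, 0.993 for Eif3i, 0.993 for Nup85 and 0.990 for Epha2. These 11 libraries share the split between clones 2 and 3 of LIFR KO with the double KO and the rest. Rpl39 (-0.753), Rps27l (-0.597), Rpl30 (-0.514) and Rpl22 (-0.384) were the members least like the family's own mean.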

How the data were processed

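RNA-Seq was performed on 11 libraries (dataset 1) and 4 libraries (dataset 2). Total RNA was depleted of rRNA, and directional libraries were sequenced as paired 150 bp reads. The authors trimmed reads, aligned them to GRCm38 with Bowtie2 in Partek Flow 10.0.21 and deposited CPM per gene and sample (zeros appear as 0.0001 in dataset 2). The counting step is not given in the sources used here. For dataset 2 the authors also deposited group means and their ratio, which were not used. The CPM of a library summed to 703925 to 786742 in dataset 1 and 411758 to 415645 in dataset 2, so the datasets were never pooled.

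Here CPM were transformed to log2(CPM + 0.1), genes averaging 0.5 CPM or more over the fitted samples were kept (12621 and 11384), and group means were fitted with limma 3.58.1 (R 4.3.3) with a mean-variance trend, two-sided. Dataset 1 was fitted with shPCBP1 (n = 4), FAM3C KO (n = 3) and LIFR KO (n = 3) together, without the double KO. Fold changes are on the log2(CPM + 0.1) scale and understate those of low genes. The threshold was a Benjamini-Hochberg adjusted p under 0.07, the level the study used. The procedure was tested on simulated data for the PCBP1 knockdown and FAM3C KO comparisons, with the same spread in every group. The comparisons with LIFR KO, whose clones spread more, were not simulated. Exact permutation tests cannot go below 0.0571 (4 against 3), 0.1 (3 against 3) or 0.333 (2 against 2). In dataset 1, 80.8% to 83.8% of low values per library were whole multiples (within 0.02) of the lowest value, so whole reads were not recovered and no count test was run.

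Named were, per comparison, the 5 members higher and the 5 lower with the largest change past the threshold (where none passed, the 2 with the smallest p), members fixed for known roles, paralogues, and members at 10 CPM or below. Rps2, Rps14, Rpl17, the double KO's 4 members and single genes of the other lists were singled out after their values were seen, as were the comparison with neighbouring genes and the classes of GC content. The members and lists were chosen with earlier results of these data known. GC content and length came from 1 principal transcript per gene of GENCODE M21 (GRCm38), and copies of the coding sequence were sought with BLAST+ 2.17.0. Gene starts equalled M21 for 302 of 13870 genes of dataset 1 and 14269 of 14795 of dataset 2, so coordinates are those of M21. Proteins are not shown, and some single genes are not reported here.

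The alternatives were median-ratio rescaling, quantile normalization, leaving the members out of the library total, a pseudocount of 1 CPM, other filters, other thresholds, a replicate block, leaving out samples, a GC correction (loess, span 0.3) and fitting 2 groups alone.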

Additional observations from a re-analysis of the deposited data

Results flagged for a closer look

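In 6 of the 77 members 1 of the 4 shPCBP1 lines stood apart from the others by Dixon's criterion (7.79%). The nominal rate of the criterion is about 1 group in 20, so the count is near it. The members are not independent, and the share over all genes was not computed, so the values are only listed. In control clone 3, Rps2 was 652 CPM where the others were 480 to 481, Rps10 was 128 (others 102 to 105) and Rps12 was 139 (others 111 to 116). Rpl41 was 1109 CPM in control clone 2 against 732 to 787, Rpl13 was 101 in the unaltered line against 95.1 to 95.5, and Rps27 was 42.7 in control clone 1 against 39.4 to 39.7.

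A test of the difference between FAM3C KO and LIFR KO passed for Rpl22 (log2 difference 0.78), Rpl36 (1.09), Rpl8 (0.86) and Rpl39 (-0.63).

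The double KO, which entered no test, exceeded all 4 shPCBP1 lines for Rpl22 (106 CPM), Rpl30 (72.8), Rpl39 (94.1) and Rps27l (72.9), where 26% of all genes tested did.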

How the results depend on the processing

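After PCBP1 knockdown the count of 51 members past the threshold became 5 when a fold change of 1.5 was also required (31.1% of all genes). The median of 0.02 became -0.0040 with quantile normalization and -0.02 with GC correction. Leaving out 1 of the 4 samples gave counts of 40 to 50 (71.5% to 78.5% of all genes) and medians of 0.022 to 0.060, with the spread of the lone sample assumed from the other group. With quantile normalization Rpl3 turned from 0.02 (adjusted p = 0.394) to -0.070 (adjusted p = 0.0362, limma). In FAM3C KO the count of 0 became 1 with GC correction (2.29% of all genes) and 7 with the 2 groups fitted alone (8.29%), and leaving out 1 library gave 0 to 1 (0.0238% to 2.84% of all genes, medians -0.12 to -0.07).

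In LIFR KO the count of 1 became 2 with median-ratio rescaling (Rpl8 and Rps20, 3.91% of all genes). It became 0 with an adjusted p under 0.05 (2.84%), with GC correction (0.484%, median -0.043) and with the 2 groups fitted alone (0.278%). Without clones 2 and 3 the median was 0.13. Leaving out 1 library gave 0 to 57 (0.0397% to 57.4% of all genes, medians -0.41 to -0.12). Between FAM3C KO and LIFR KO the count of 4 became 1 with an adjusted p under 0.05, 0 with GC correction (median -0.027) and with the 2 groups fitted alone, and 12 without clones 2 and 3 (9.45% of all genes, median -0.21). Leaving out 1 library gave 0 to 55 (0.00793% to 52.9% of all genes, medians 0.02 to 0.38). Without clones 2 and 3, Rpl13a turned from 0.21 to -0.37 and Rpsa from 0.21 to -0.33, in fits where LIFR KO is 1 library and the spread comes wholly from the other groups. Median-ratio rescaling lost Rpl22 from the 4 and gained Rpl23 (6.54% of all genes passed), and quantile normalization lost Rpl22 (6.6%). Fits on fewer samples have a less certain spread, and the cause of the other changes was not tested.

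With replicate numbers as a block, 55 members passed after PCBP1 knockdown (79.7%, against 81.1% of all genes). In that fit 0 passed in FAM3C KO (0.119% of all genes), LIFR KO (0.0792%) and between FAM3C KO and LIFR KO (0%). GC correction and the replicate block together left 0 in FAM3C KO (0.175% of all genes). They also left 0 in LIFR KO (0% of all genes, median -0.047) and between the knockouts (0%, median -0.027). Same-numbered samples share only a number: their deviations from the group means correlated between -0.18 and 0.15 in dataset 1 and at 0.05 in dataset 2.

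CPM without known counts limit statements on members at 10 CPM or below, and the depth of dataset 2 is unknown.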
